A study of Homo sapiens with 2 samples.

Results

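The transcripts described here are 10 non-coding small nucleolar RNA (snoRNA) host genes: GAS5, ZFAS1, SNHG1, SNHG5, SNHG6, SNHG7, SNHG8, SNHG12, SNHG15 and SNHG16. They were listed by symbol and found through the Ensembl gene IDs of the tables, matched to GENCODE 29 gene symbols, and all 10 were present among the 58735 genes listed. The cells were BT549, an established human breast cancer cell line with a mesenchymal expression profile. One library came from BT549 cells carrying a short hairpin against the kinase SIK2 (shSIK2), and the other from BT549 cells carrying a scrambled hairpin, and both cultures had received the ligand Wnt3a for 2 h. Each group had 1 library, so no difference below has a replicate check or a test, and every interval covers counting error only. The sources used here do not say whether the hairpin cells were 1 clone or a pool, or how many hairpin sequences were used.

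A snoRNA host gene is transcribed by RNA polymerase II, and most of its snoRNAs are cut out of the spliced introns. Box C/D snoRNAs guide ribose methylation and box H/ACA snoRNAs guide pseudouridylation, mainly of ribosomal RNA, so host genes feed ribosome production. The spliced exons that remain are, for many hosts, degraded by nonsense-mediated decay after ribosomes read their short open reading frames. Many hosts belong to the TOP class, whose transcripts begin with a run of pyrimidines, and whose translation follows growth signals through the mTORC1 kinase complex. The kept exons have been given roles of their own in some cases: GAS5 RNA accumulates in growth-arrested cells and can bind the glucocorticoid receptor as a decoy.

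The start regions of the hosts are shown first because the pyrimidine run is the feature that the class is known for. RefSeq promoter sequences (GRCh38.p14) were printed for 8 of the 10 hosts, from 40 bases before the annotated start to 20 bases from it on. The capitals mark runs of at least 6 pyrimidines (C or T) on the sense strand, searched from 10 bases before the start to 20 bases from it on, and the letters TATAA on the sense strand, searched from 40 to 16 bases before the start.
GAS5 (chr1:173869026-173869085, minus strand): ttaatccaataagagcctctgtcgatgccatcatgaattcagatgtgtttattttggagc
ZFAS1 (chr20:49278602-49278661, plus strand): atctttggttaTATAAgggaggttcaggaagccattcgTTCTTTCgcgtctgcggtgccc
SNHG1 (chr11:62855866-62855925, minus strand): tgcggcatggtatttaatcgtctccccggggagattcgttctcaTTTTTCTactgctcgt
SNHG5 (chr6:85678714-85678773, minus strand): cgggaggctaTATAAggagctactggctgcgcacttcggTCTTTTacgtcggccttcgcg
SNHG7 (chr9:136728165-136728224, minus strand): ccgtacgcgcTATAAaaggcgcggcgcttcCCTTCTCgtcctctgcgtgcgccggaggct
SNHG8 (chr4:118278722-118278781, plus strand): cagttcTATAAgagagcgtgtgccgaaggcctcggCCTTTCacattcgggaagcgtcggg
SNHG12 (chr1:28581854-28581913, minus strand): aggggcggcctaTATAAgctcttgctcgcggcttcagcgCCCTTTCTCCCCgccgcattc
SNHG16 (chr17:76557724-76557783, plus strand): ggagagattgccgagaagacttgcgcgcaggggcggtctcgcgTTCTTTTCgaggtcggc

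A pyrimidine run lay in the window of 7 of the 8 hosts, all but GAS5, against 30.4% of the 35116 promoters in the same RefSeq table. A run in the window is not itself a TOP start: the SNHG7 run ends before the start, and those of SNHG1 and SNHG16 begin after it. RefSeq and the outermost GENCODE start differ for several hosts, by 163 bases for GAS5, 464 for ZFAS1 and 1259 for SNHG12, so the windows hold for the RefSeq starts. TATAA stood in 5 of the 8 windows (ZFAS1, SNHG5, SNHG7, SNHG8 and SNHG12), against 3.89% of all promoters. On the antisense strand the same letters were found in 1 of 8, at ZFAS1, where they overlap the sense match, against 1.70% of all promoters. These matches describe the letters in each window and are neither a bound site nor a cause. In the values that follow, the 3 hosts without TATAA in the window (GAS5, SNHG1 and SNHG16) and 1 of the 5 with it (SNHG8) were at least 1.5-fold lower in shSIK2 cells, a split seen after the values were known and not tested.

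The shSIK2 library held 16347399 reads and the scrambled library 18019225 reads, recovered from the deposited FPKM values and the exon length of each gene. SIK2 itself stood at 3.56 FPKM in shSIK2 cells (599 reads), against 7.80 FPKM in scrambled cells (1312 reads), which is 2.19-fold lower (1.99 to 2.42, exact 95% interval). Genes were called measured when the higher library reached 1 FPKM, which left 12866 genes with a median log2 ratio of -0.11. A read was worth the same FPKM in both libraries, so ratios as deposited carry the difference in total reads. Scaling both libraries to equal total reads adds about 0.14 to every log2 ratio, and puts that median at 0.03. All 6 mesenchymal markers were measured, and they differed in both directions: SPARC was 4.95-fold and COL1A1 2.06-fold higher, CDH2 was 6.09-fold and FN1 1.32-fold lower, and ZEB1 and VIM were within 1.14-fold of level. PGR and EPCAM were listed at 0 in both libraries, and 1 of 5 epithelial markers was measured, the keratin KRT18, with 1064 reads in shSIK2 cells and 118 in scrambled cells, 9.02-fold higher (7.45 to 11.0). Its partner KRT8 had 88 reads in shSIK2 cells and 13 in scrambled cells, and the part of such a difference between the cultures in the host values was not tested. None of 6 leukocyte, 3 endothelial or 2 adipocyte markers was measured: their summed reads were 20, 1 and 6 in shSIK2 cells, and 22, 0 and 3 in scrambled cells.

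All 10 hosts were measured, and 9 of them were lower in shSIK2 cells than in scrambled cells by the deposited values, with SNHG7 the exception. Among all measured genes, 55.9% had a ratio below 1. None of the 10 reached a 2-fold difference, which 8.28% of measured genes reached downward and 11.0% upward. At 1.5-fold, 5 hosts were lower (GAS5, SNHG16, SNHG8, SNHG15 and SNHG1), beside 21.3% of measured genes, and 1 was higher (SNHG7), beside 19.7%. The median log2 ratio of the hosts was -0.42, beside -0.11 for all measured genes. At equal total reads, 2 hosts remained at least 1.5-fold lower, GAS5 and SNHG16, beside 15.8% of measured genes, and SNHG7 was still at least 1.5-fold higher, beside 24.0%. On that scale 8 hosts were below 1, beside 48.3% of measured genes, and the host median was -0.28.

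GAS5, the growth arrest host whose introns hold 11 snoRNAs named in RefSeq, was at 83.5 FPKM in shSIK2 cells (5203 reads), against 161 FPKM in scrambled cells (10003 reads). It was 1.92-fold lower (1.86 to 1.99), a log2 ratio of -0.94, the largest difference among the 10 hosts. Of all measured genes, 9.47% were at least as low by log2 ratio. GAS5 was the most abundant host in scrambled cells and the second most abundant in shSIK2 cells. At equal total reads its log2 ratio was -0.80.

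SNHG16, host of the box C/D snoRNAs SNORD1A, SNORD1B and SNORD1C, was at 10.7 FPKM in shSIK2 cells (982 reads), against 18.9 FPKM in scrambled cells (1740 reads). The level in shSIK2 cells was 1.77-fold lower (1.64 to 1.92), or -0.82 on the log2 scale. SNHG8, host of the box H/ACA snoRNA SNORA24, was at 66.9 FPKM in shSIK2 cells (1060 reads), against 109 FPKM in scrambled cells (1729 reads), 1.63-fold lower (1.51 to 1.76). SNHG8 is the shortest of the 10 in exon length, at 923 bases, so its reads, close in number to those of SNHG16, give a far higher level per length.

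SNHG15, host of the box H/ACA snoRNA SNORA9, was at 6.45 FPKM in shSIK2 cells (404 reads), against 10.3 FPKM in scrambled cells (645 reads). It was 1.60-fold lower (1.41 to 1.81). SNHG1, whose introns hold 8 box C/D snoRNAs named in RefSeq, was at 48.2 FPKM in shSIK2 cells (3110 reads), against 72.7 FPKM in scrambled cells (4684 reads), 1.51-fold lower (1.44 to 1.58). SNHG1 lies just past the 1.5-fold line, with a log2 ratio of -0.59, and the next host below that size, SNHG12, is at -0.26. In a bulk culture, fewer cells carrying a transcript and less of it per cell cannot be told apart.

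The other 4 hosts that were lower in shSIK2 cells differed by much less. SNHG12, host of SNORD99 and of 3 box H/ACA snoRNAs, was at 13.8 FPKM in shSIK2 cells (1011 reads) and 16.5 FPKM in scrambled cells (1211 reads), 1.20-fold lower (1.10 to 1.30). SNHG5, host of SNORD50A and SNORD50B, was at 52.0 FPKM in shSIK2 cells (2502 reads) and 60.1 FPKM in scrambled cells (2894 reads), 1.16-fold lower (1.10 to 1.22). ZFAS1, which starts opposite the ZNFX1 promoter and hosts the SNORD12 family, was at 38.7 FPKM in shSIK2 cells (1490 reads) and 43.8 FPKM in scrambled cells (1688 reads), 1.13-fold lower (1.06 to 1.22). These 3 intervals lie below 1 as deposited and include 1 at equal total reads, where the log2 ratios were -0.12 for SNHG12, -0.07 for SNHG5 and -0.04 for ZFAS1.

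SNHG6, host of SNORD87, was at 116 FPKM in shSIK2 cells (2472 reads) and 126 FPKM in scrambled cells (2702 reads), 1.09-fold lower (1.03 to 1.15). Its log2 ratio of -0.13 as deposited became 0.012 at equal total reads, so its direction rests on the scaling. SNHG7, host of SNORA17A and SNORA17B, was the 1 host with a higher level in shSIK2 cells, at 2.71 FPKM (202 reads), against 1.73 FPKM in scrambled cells (129 reads). It was 1.57-fold higher (1.25 to 1.97), on the fewest reads of the 10 hosts.

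**Figure D1:**
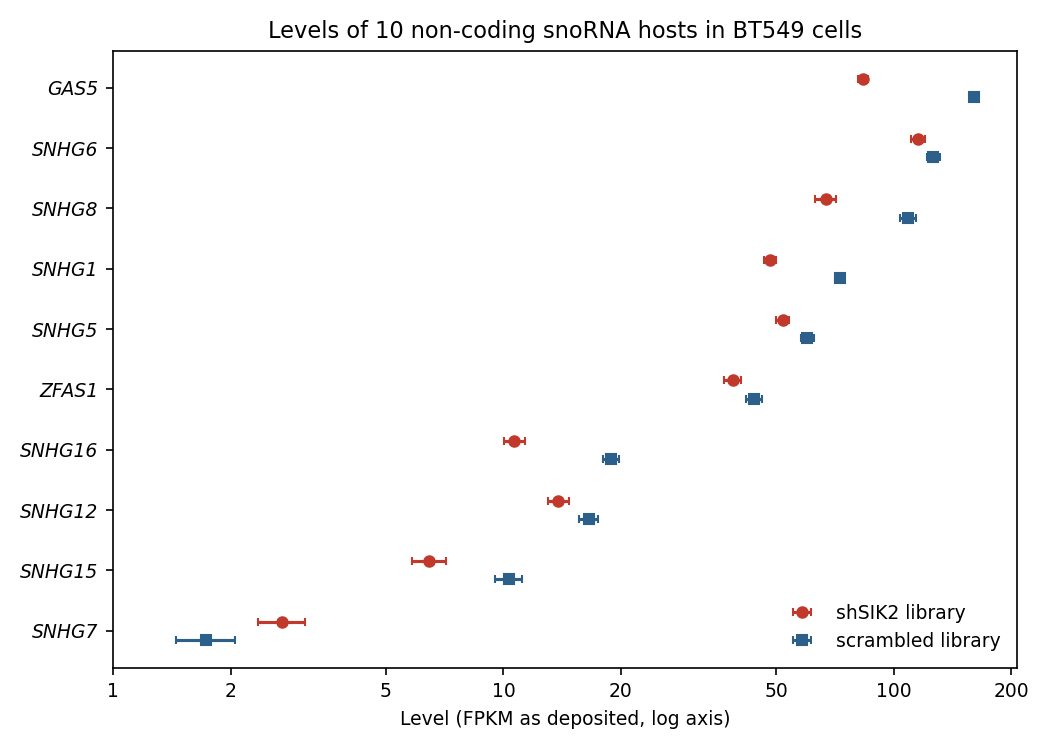
Level of each host in FPKM on a log axis, with 1 point for the shSIK2 library and 1 for the scrambled library, and bars for the exact 95% counting interval. GAS5 is at 83.5 in shSIK2 and 161 in scrambled cells, while SNHG6, SNHG5 and ZFAS1 have points that nearly meet and SNHG7 has its shSIK2 point on the high side.

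Read against counting error alone, the ratio interval lay wholly below 1 for 9 hosts as deposited, beside 42.9% of measured genes, and wholly above 1 for 1 host, beside 30.4%. At equal total reads it lay below 1 for 5 hosts, GAS5, SNHG16, SNHG8, SNHG15 and SNHG1, beside 34.0% of measured genes. Whether an interval excludes 1 depends on the number of reads, and the measured genes were not matched to the hosts by reads. The hosts differed among themselves: in 33 of their 45 pairs the ratio intervals did not meet. The 5 lowest hosts had upper bounds of the shSIK2 over scrambled ratio at or below 0.710, and the other 5 had lower bounds at or above 0.767. How far cultures of 1 group vary was not measured, so these separations are between 2 libraries.

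**Figure D2:**
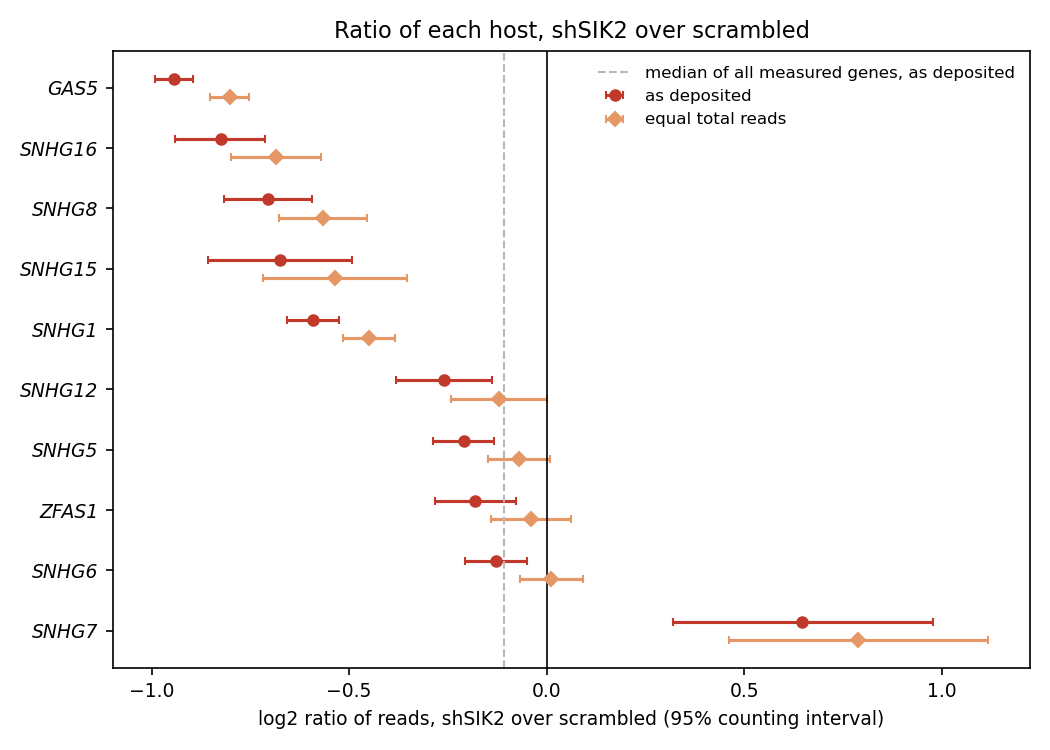
Log2 ratio of shSIK2 over scrambled for each host, from lowest to highest, as deposited and at equal total reads, with 95% counting intervals. GAS5, SNHG16, SNHG8, SNHG15 and SNHG1 lie below 0 on both scales, SNHG6 crosses 0 between them, and SNHG7 lies above 0 on both.

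Summed over the 10 hosts, 18436 reads were counted in shSIK2 cells, 0.113% of all reads, against 27425 in scrambled cells, 0.152% of all reads. The sum was 1.49-fold lower in shSIK2 cells (1.46 to 1.52), and 1.35-fold lower at equal total reads. GAS5 gave the largest part of that difference, and without it the sums were 13233 reads in shSIK2 cells and 17422 reads in scrambled cells, 1.32-fold lower (1.29 to 1.35) and 1.19-fold lower at equal totals.

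Of the 10 hosts, 6 were among the most abundant non-coding transcripts of these cells. Non-coding here means gene types such as lincRNA, antisense and processed transcript, without the types of small RNAs. On the FPKM scale, a level per length of all exons, these hosts held 6 of the 10 highest places among 973 measured non-coding genes in each library. In shSIK2 cells SNHG12 ranked 33, SNHG16 43, SNHG15 74 and SNHG7 268. In scrambled cells these 4 ranked 29, 26, 45 and 376. In shSIK2 cells the order from high to low was SNHG6, GAS5, SNHG8, SNHG5, SNHG1, ZFAS1, SNHG12, SNHG16, SNHG15 and SNHG7. In scrambled cells it was GAS5, SNHG6, SNHG8, SNHG1, SNHG5, ZFAS1, SNHG16, SNHG12, SNHG15 and SNHG7. The exchanged neighbours are GAS5 with SNHG6, SNHG1 with SNHG5, and SNHG16 with SNHG12, and in each exchange the host at least 1.5-fold lower moved down.

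Each neighbouring pair in these orders differed by more than counting error, the closest being SNHG5 over SNHG1 in shSIK2 cells at 1.08 (1.02 to 1.14). The order also depends on which length is used, because the union of all annotated exons is longer than a typical transcript. For GAS5 the union is 3631 bases over 29 annotated transcripts with a median length of 688 bases, and for SNHG8 it is 923 bases against a median of 470 bases. With reads divided by the median transcript length, GAS5 ranked 1st and SNHG1 3rd in shSIK2 cells, and 1st and 2nd in scrambled cells. The ratio between the libraries does not depend on that choice.

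By the median, measured non-coding genes stood higher in shSIK2 cells, with a log2 ratio of 0.30. At least 1.5-fold, 39.1% of them were higher and 21.2% lower. Summed over all 14994 listed non-coding genes, reads were 177819 in shSIK2 cells and 180851 in scrambled cells. The hosts, with 1 of 10 higher and 5 of 10 lower at that size, differed in direction from the median of that class. The class was not matched to the hosts by level. No sample-level test of the contrast was possible.

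**Figure D3:**
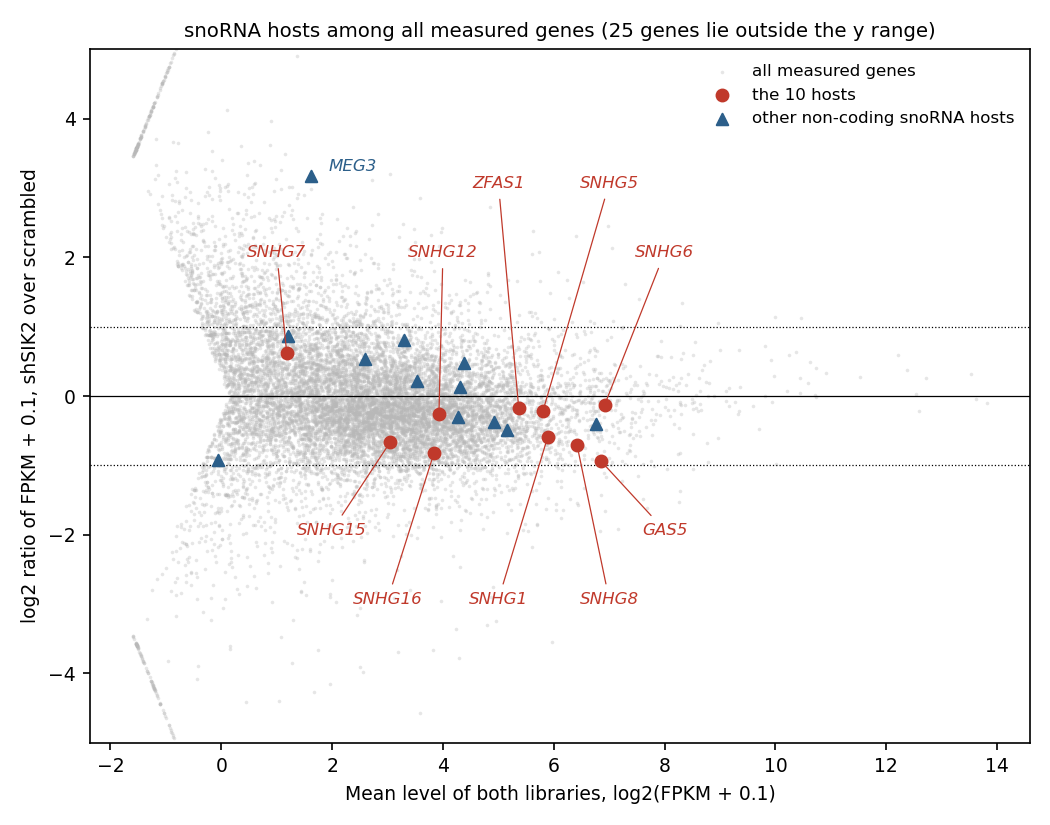
Log2 ratio of shSIK2 over scrambled (y) against the mean log2 level (x) for all 12866 measured genes in grey, the 10 hosts in red and other non-coding snoRNA hosts in blue, with dotted lines at a 2-fold difference. The hosts lie between the dotted lines, 9 of them below 0, while MEG3 lies far above.

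The hosts are spread over 9 chromosomes, with GAS5 and SNHG12 both on chromosome 1, and their GC content runs from 41.3% in SNHG6 to 61.2% in SNHG7. Across all measured genes the log2 ratio moved with GC content (Spearman rho 0.28 across genes, which are not independent replicates). SNHG7, the host with the highest GC content, was the 1 host that was higher, whereas SNHG6, with the lowest, was close to level. With the GC and length trend removed in 20 bins, SNHG7 was at a log2 ratio of 0.32 and GAS5 at -0.81. The host median was then -0.37. The part of GC content in the single values was not tested.

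For 6 of the hosts the exons overlap another annotated gene that is not a snoRNA, and no source used here gives the strand setting of the counting, so reads from overlapping genes cannot be told apart. SNHG7 shares 1094 exon bases with FAM69B, a gene for a kinase-like protein of the endoplasmic reticulum, which was at 4.96 FPKM in shSIK2 cells (230 reads), against 1.85 FPKM in scrambled cells (86 reads), 2.67-fold higher (2.08 to 3.47). The 1 host that stood higher therefore overlaps a gene that stood higher still, and its part in the SNHG7 value was not tested. ZFAS1 shares 249 exon bases with its antisense partner ZNFX1, a helicase gene, which was at 13.4 FPKM in shSIK2 cells (2146 reads), against 22.0 FPKM in scrambled cells (3522 reads), 1.64-fold lower (1.56 to 1.73).

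Other overlaps carry few reads or few bases. SNHG16 shares 1639 exon bases with AC015802.6, which had 5 reads in shSIK2 cells and 4 in scrambled cells, and SNHG6 shares 365 with MCMDC2, which had 7 reads in shSIK2 cells and 4 in scrambled cells. GAS5 shares 42 bases with GAS5-AS1, which had 6 reads in shSIK2 cells and 11 in scrambled cells. SNHG12 shares 8 bases with TRNAU1AP, a selenocysteine tRNA factor gene, which had 429 reads in shSIK2 cells and 529 in scrambled cells, 1.23-fold lower (1.08 to 1.40). The exons of SNHG1, SNHG5, SNHG8 and SNHG15 overlap snoRNA genes and no other kind of gene, and these include 3 of the 5 hosts at least 1.5-fold lower.

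SNHG1 is paired head to head with SLC3A2, the heavy chain of an amino acid transporter, whose start lies 188 bases away with no shared exon. SLC3A2 was at 72.2 FPKM in shSIK2 cells (6415 reads) and 80.9 FPKM in scrambled cells (7189 reads), 1.12-fold lower (1.08 to 1.16). SNHG1 was 1.51-fold lower, so the counting intervals of the pair did not meet. SNHG16 has a head-to-head neighbour 83 bases away, AC015802.4, with 1 read in shSIK2 cells and 3 in scrambled cells.

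The snoRNAs themselves were barely sampled. GENCODE 29 lists 26 snoRNA genes inside the hosts, none of them in GAS5, whereas RefSeq names 36, of which 28 are box C/D and 8 box H/ACA. The 4 that touch no host exon all had reads, with 14 reads in shSIK2 cells and 15 in scrambled cells in sum. They are printed here with SNORD12 for comparison, as GENCODE 29 transcript sequences on GRCh38, with capitals for the box C letters TGATGA within the first 20 bases and the box D letters CTGA within the last 20 bases.
SNORD12C (in ZFAS1, chr20:49278940-49279028, plus strand): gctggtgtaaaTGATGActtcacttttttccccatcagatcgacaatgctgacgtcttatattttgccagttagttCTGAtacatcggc
SNORD12B (in ZFAS1, chr20:49280319-49280409, plus strand): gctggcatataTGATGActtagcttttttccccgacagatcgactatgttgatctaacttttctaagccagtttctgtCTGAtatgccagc
SNORD12 (in ZFAS1, chr20:49280683-49280772, plus strand): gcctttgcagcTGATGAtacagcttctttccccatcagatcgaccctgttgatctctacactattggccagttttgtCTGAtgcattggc
SNORD1B (in SNHG16, chr17:76561109-76561192, plus strand): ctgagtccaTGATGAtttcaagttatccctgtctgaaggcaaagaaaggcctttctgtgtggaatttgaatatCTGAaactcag
SNORD99 (in SNHG12, chr1:28578749-28578822, minus strand): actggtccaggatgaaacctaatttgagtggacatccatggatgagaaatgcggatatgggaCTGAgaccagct

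SNORD12C had 3 reads in shSIK2 cells and 5 in scrambled cells, and SNORD12B had 3 in shSIK2 cells and 4 in scrambled cells. SNORD99 had 8 reads in shSIK2 cells and 5 in scrambled cells, and SNORD1B had 0 in shSIK2 cells and 1 in scrambled cells. None of these pairs is distinguishable at this depth. The other 22 snoRNA genes touch at least 1 base of an annotated host exon, 21 of them wholly, and all 22 were listed at 0 in both libraries. SNORD12, which lies wholly in a ZFAS1 exon, was one of them, beside SNORD12B and SNORD12C with reads from the same host. A 0 of this kind therefore says nothing about the level of the snoRNA, and none of the 36 could be compared with its host. Over all 943 snoRNA genes of the tables, 161 had any read, with 628 reads in shSIK2 cells and 640 in scrambled cells.

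Among 20 other snoRNA hosts listed as non-coding, 12 were measured, with a median log2 ratio of 0.17 and 5 below 0. Of these 12, C6orf48, at a log2 ratio of 0.13, is annotated as protein-coding. It is also counted among the protein-coding hosts below. At least 1.5-fold, 3 were higher, beside 19.7% of all measured genes, and 1 was lower, beside 21.3%. The 3 with the most reads in scrambled cells were lower in shSIK2 cells: LRRC75A-AS1 was 1.33-fold, SNHG3 1.41-fold and SNHG17 1.29-fold lower. Ranking on scrambled reads favours genes lower in shSIK2 cells, and on shSIK2 reads MEG3 takes the place of SNHG17 among the 3. MEG3, the imprinted long non-coding RNA that neighbours snoRNA clusters on chromosome 14, was at 9.19 FPKM in shSIK2 cells (3663 reads), against 0.93 FPKM in scrambled cells (369 reads), 9.93-fold higher (8.92 to 11.1). SNHG10 was 1.87-fold higher (1.33 to 2.65) and SNHG19 was 1.77-fold higher (1.20 to 2.63), on 101 and 76 reads in shSIK2 cells, against 54 and 43 in scrambled cells. SNHG26 was 2.04-fold lower (1.26 to 3.36), with 27 reads in shSIK2 cells and 55 in scrambled cells. With equal total reads, 5 of the 12 were at least 1.5-fold higher, a share of 41.7% beside 24.0% of measured genes.

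Protein-coding snoRNA hosts, taken from the annotation as genes whose span holds a snoRNA gene on the same strand, had a median of -0.20 over 184 measured of 255, with 43 at least 1.5-fold lower and 18 higher. That is 23.4% lower, near the 21.3% of all measured genes, and 9.78% higher, below the 19.7% of all measured genes. The 28 of them that encode ribosomal proteins had a median of 0.07 with none lower and 2 higher at that size, and the other 156 measured had a median of -0.27 with 43 lower and 16 higher. The log2 ratios furthest from 0 were those of COBLL1 at 2.57, TRO at 2.31, ST8SIA2 at 1.84 and CAMK1D at -1.69.

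Many snoRNA hosts share the TOP class with the messenger RNAs of the translation machinery, and those messenger RNAs stood near level. Whether each host described here belongs to that class was not tested. Of 82 measured ribosomal protein and like-named genes, 4 were at least 1.5-fold lower, beside 21.3% of measured genes, and 2 higher, beside 19.7%, with a median of 0.04 as deposited and 0.18 at equal total reads. RPL7A and RPL23A were 1.71-fold and 1.65-fold higher, and RPL26 and RPL7L1 were 1.82-fold and 1.75-fold lower. RPL26 was low in both libraries, at 3.80 FPKM in shSIK2 cells (164 reads) and 6.93 FPKM in scrambled cells (299 reads). RPL7A was at 488 FPKM in shSIK2 cells and 284 FPKM in scrambled cells. Of 15 other measured TOP messenger RNAs, 1 was at least 1.5-fold lower, a share of 6.67% beside 21.3%, and none reached 1.5-fold higher. The lower one was EEF1B2, an elongation factor subunit that also hosts snoRNAs, at 1.59-fold lower. The median of the 15 was 0.12. The highest of them were RACK1, a ribosome-bound scaffold protein, with a log2 ratio of 0.58, and the initiation factor EIF4B, 1.47-fold higher. At equal total reads, the 1.5-fold count of ribosomal protein genes was 5 higher and 2 lower, and that of the other TOP messenger RNAs was 4 higher and none lower. Whether the hosts and these messenger RNAs differ beyond culture variation was not tested.

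**Figure D4:**
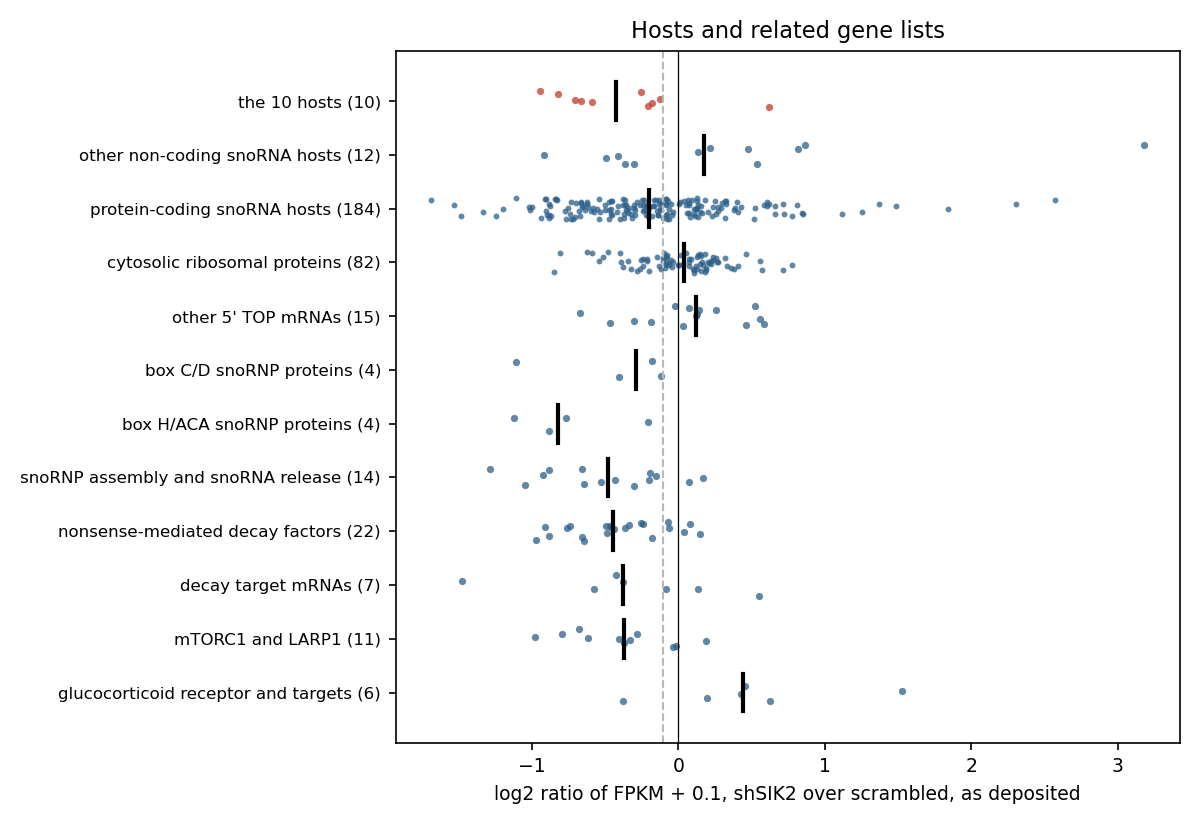
Log2 ratio of shSIK2 over scrambled for every measured member of each list, with 1 point per gene and a bar at the median, the 10 hosts at the top. The host median is -0.42, ribosomal protein genes centre on 0.04, and box H/ACA proteins are the lowest list at -0.82.

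The 8 core proteins that bind snoRNAs were all lower in shSIK2 cells by the deposited values, beside 55.9% of measured genes, and NOP56 turned to a log2 ratio of 0.02 at equal total reads. In the box H/ACA particle, 3 of 4 proteins were at least 1.5-fold lower, beside 21.3% of measured genes, with a median of -0.82, and the count was also 3 at equal total reads, beside 15.8%. GAR1 was at 10.8 FPKM in shSIK2 cells, against 23.7 FPKM in scrambled cells, 2.19-fold lower (1.94 to 2.48). DKC1, the pseudouridine synthase, was at 42.4 FPKM in shSIK2 cells, against 78.2 FPKM in scrambled cells, 1.84-fold lower (1.76 to 1.93), while NHP2 was 1.70-fold lower and NOP10 1.15-fold lower. In the box C/D particle, NOP58 was at 19.6 FPKM in shSIK2 cells, against 42.5 FPKM in scrambled cells, 2.16-fold lower (2.01 to 2.33). SNU13, the methyltransferase FBL and NOP56 were 1.32-fold, 1.13-fold and 1.09-fold lower, and the box C/D median was -0.29.

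Of 14 factors for snoRNP assembly and snoRNA release, all measured, 6 were at least 1.5-fold lower, beside 21.3% of measured genes, and none higher, with a median of -0.48. With equal total reads, 4 were lower at that size, beside 15.8%. RUVBL1, an ATPase of the assembly complex, was 2.45-fold lower, and ZNHIT6 was 2.09-fold lower. TGS1, which hypermethylates the cap of some snoRNAs, was 1.90-fold lower, and NAF1, an H/ACA assembly factor, was 1.87-fold lower.

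Host exons are known substrates of nonsense-mediated decay, and 7 of 22 factors of that pathway were at least 1.5-fold lower, beside 21.3% of measured genes, with none higher and a median of -0.45. The count was 5 at equal total reads, beside 15.8%. SMG5 and MAGOH were 1.88-fold and 1.86-fold lower, and DHX34 was 1.70-fold lower. Among 7 messenger RNAs known as targets of that decay, the median was -0.38 and 1 was at least 1.5-fold lower, a share of 14.3% that is no higher than the 21.3% of all measured genes. ATF3 was at 8.21 FPKM in shSIK2 cells, against 23.0 FPKM in scrambled cells, a log2 ratio of -1.48. GADD45A and TBL2 were 1.49-fold and 1.35-fold lower, and GADD45B was 1.48-fold higher.

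Of 11 measured members of mTORC1 signalling, including LARP1, which binds TOP messenger RNAs, 4 were at least 1.5-fold lower, beside 21.3% of measured genes, and none higher, with a median of -0.37. EIF4EBP1, a translation repressor, was at 139 FPKM in shSIK2 cells, against 275 FPKM in scrambled cells, 1.97-fold lower. EIF4EBP2, LARP1 and RHEB were 1.74-fold, 1.60-fold and 1.53-fold lower. At equal total reads 2 of the 11 were lower at that size, a share of 18.2% beside 15.8% of measured genes.

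GAS5 RNA can act as a decoy for the glucocorticoid receptor, so the receptor and its textbook targets were listed. Of 6 measured of 8, 2 were at least 1.5-fold higher, beside 19.7% of measured genes, and none lower, with a median of 0.44. FKBP5, another target, just missed the level for measured genes and was 2.04-fold lower (1.56 to 2.68), with 83 reads in shSIK2 cells and 169 in scrambled cells. With the GC and length trend removed, 1 of the 6 was at least 1.5-fold higher. SGK1 was at 24.5 FPKM in shSIK2 cells, against 8.44 FPKM in scrambled cells, 2.91-fold higher (2.74 to 3.09), and DUSP1 was 1.54-fold higher (1.45 to 1.63). PER1 and KLF9 were 1.38-fold and 1.35-fold higher. NR3C1, the receptor gene itself, was at 25.2 FPKM in shSIK2 cells and 32.8 FPKM in scrambled cells, 1.30-fold lower (1.25 to 1.35). Any link between the GAS5 level and these values was not tested.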

How the data were processed

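The 2 tables hold values labelled FPKM for 58735 Ensembl genes, 1 library per group, as deposited by the authors. By name, FPKM scales fragments by exon length and library size, but here a read was worth the same FPKM in both libraries. Ratios as deposited therefore follow the reads and are not scaled to the total of each library. The submitters' processing notes name HISAT2 2.0.5 as a tool and hg18 as a build. The gene IDs all match GENCODE 29, a GRCh38 annotation, so coordinates printed here are GRCh38 from that annotation. The counting tool, its strand setting, the FPKM formula and any selection of polyadenylated RNA were not given in the sources used here. FPKM times the GENCODE exon length gave values that passed a check for whole reads for every gene, and these reads carry the intervals. The allowance of that check was 0.001 for genes with few reads and widened with the number of reads. For genes with many reads, such as GAS5, the check therefore could not fail and does not show that the values were whole.

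Log2 ratios are shSIK2 over scrambled on log2(FPKM + 0.1), for genes reaching 1 FPKM in 1 or both libraries, and they understate differences of low genes. Exact 95% intervals (conditional binomial for ratios, Poisson for levels) cover counting error only. Reads are not independent molecules, since no molecular identifiers are given. With 1 library per group, no test was run and genes were described at 2-fold and 1.5-fold. Alternatives were pseudocounts of 0.01 and 1, no filter, at least 5 FPKM, equal total reads, GC and length trend removal in 20 bins, and leaving out hosts that overlap a gene other than a snoRNA. The hosts and all 11 lists were chosen with earlier results of these data known. Named genes were SIK2, the 10 hosts, their neighbours, and up to 4 members per list with the largest absolute log2 ratio; 2 genes under this rule are not reported here. FKBP5, SNHG3, SNHG17, LRRC75A-AS1 and the markers were named after their values were seen, and NR3C1 for its role. Scripts (Python 3.11.15, numpy 2.4.6, pandas 2.3.3, scipy 1.17.1, matplotlib 3.10.9) were tested on simulated data.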

Additional observations from a re-analysis of the deposited data

How the results depend on the processing

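The direction of 9 of the 10 hosts held under each setting that gave a value for the host; SNHG7 has none at 5 FPKM or more, and the 6 overlapping hosts have none where they are left out. The log2 ratio of SNHG6 turned to 0.012 at equal total reads, against -0.13 as deposited. The count of hosts at least 1.5-fold higher, 1 as deposited (SNHG7), was 0 with a pseudocount of 1, with the GC and length trend removed, at 5 FPKM or more, and without the hosts that overlap a gene other than a snoRNA. The count at least 1.5-fold lower, 5 as deposited, was 2 at equal total reads and 3 without the overlapping hosts, where 4 hosts were left. It was 4 with a pseudocount of 1 and also 4 with the GC and length trend removed. The host median of -0.42 was -0.28 at equal total reads, -0.59 at 5 FPKM or more and -0.63 without the overlapping hosts. A pseudocount of 0.01 moved none of 48 values. At equal total reads the shift is that of the library totals, and the last settings keep fewer hosts. Other causes of these shifts were not tested. No paired analysis was possible because each group has 1 library with no replicate number, and for the same reason no replicate could be left out. Depth limits SNHG7 most, with 202 reads in shSIK2 cells and 129 in scrambled cells, and the snoRNAs, none of which had more than 8 reads.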
